A study of Mus musculus with 6 samples.

Results

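Interferon regulatory factors are transcription factors that share a DNA-binding domain with a conserved set of tryptophans and that read interferon-responsive elements in promoters and enhancers. The 8 family members described here, Irf1, Irf2, Irf3, Irf4, Irf5, Irf7, Irf8 and Irf9, were chosen by gene symbol. All 8 were among the 24470 genes listed in the deposited count table, and all 8 were among the 11666 genes that had enough counts to be tested.

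The study measured messenger RNA in naive CD4+ T cells that had been purified by magnetic sorting (MACS) from male C57BL/6J mice, with spleen and skin-draining lymph nodes as the source. Both groups were cultured for 6 h on antibodies to CD3 and CD28, coated at 1 µg/mL, which together deliver an antigen-receptor and a costimulatory signal. The CCL19 group (3 libraries) also received recombinant mouse CCL19, the chemokine ligand of CCR7 that guides naive T cells into lymph nodes, and the group called no-CCL19 here (3 libraries, NoCKN in the labels) did not. The comparison asks what CCL19 adds to antigen-receptor stimulation. No library of unstimulated cells was compared here, so induction by the antibodies themselves was not measured. The labels do not give the age of the mice or the concentration of CCL19, nor do they say whether replicates came from separate animals or cultures. The p-values therefore measure the spread between these libraries, which may be technical.

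In T cells the family divides by what controls it. Irf4 is switched on by antigen-receptor signalling through NF-κB and NFAT, scales with the strength of that signal, and works with BATF and AP-1 proteins in the growth and differentiation of activated cells. Irf8 is closely related to Irf4, binds with the same partners (PU.1 in myeloid and B cells, BATF proteins with AP-1) and is best known for directing dendritic cell development. Irf1 is the classic target of interferon-γ, Irf9 is the DNA-binding subunit of the complex ISGF3 downstream of type I interferon, and Irf7 is itself an ISGF3 target that amplifies interferon production. Irf3 and Irf5 are mostly present before stimulation and are activated by phosphorylation, and Irf2 competes with Irf1 for the same elements.

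The promoters of the members that the comparison turns on are shown because the elements in them are the ones through which STAT proteins, NF-κB and the family's own members are known to act. Each runs 5′ to 3′ on the gene's strand and ends before the first transcribed base (RefSeq promoter table, GRCm38.p6). Capitals mark matches, on either strand, to a STAT element (GAS, TTCNNNGAA) or an interferon-stimulated response element (ISRE, searched as GAAA, any 2 bases, GAAA). They also mark matches, on either strand, to an NF-κB element (kappaB), a pattern of 10 bases that takes in GGGGAATCCC and GGGGATTTCC.
Irf4, chr13:30748983-30749225, plus strand: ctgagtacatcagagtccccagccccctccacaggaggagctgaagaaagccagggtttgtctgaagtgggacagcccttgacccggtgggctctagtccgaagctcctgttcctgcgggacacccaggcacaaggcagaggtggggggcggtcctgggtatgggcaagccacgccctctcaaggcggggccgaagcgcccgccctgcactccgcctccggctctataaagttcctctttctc
Irf8, chr8:120736108-120736357, plus strand: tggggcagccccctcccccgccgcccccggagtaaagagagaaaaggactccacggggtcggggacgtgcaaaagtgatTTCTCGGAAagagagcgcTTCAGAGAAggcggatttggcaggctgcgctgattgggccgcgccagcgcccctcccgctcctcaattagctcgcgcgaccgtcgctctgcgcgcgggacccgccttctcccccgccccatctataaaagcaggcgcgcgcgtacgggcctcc
Irf1, chr11:53769764-53770013, plus strand: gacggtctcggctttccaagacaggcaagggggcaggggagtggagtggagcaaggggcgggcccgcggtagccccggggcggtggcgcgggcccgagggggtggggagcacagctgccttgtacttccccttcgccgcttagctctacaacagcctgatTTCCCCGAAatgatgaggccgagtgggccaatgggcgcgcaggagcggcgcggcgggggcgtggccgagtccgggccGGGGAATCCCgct

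The Irf8 window held 2 GAS matches, starting 171 and 153 bases before the start site. The Irf1 window held 1 GAS match, 90 bases before the start site, and 1 kappaB match, 13 bases before it. The Irf4 window held none of these elements, which says only that these letters are not in this window. All 8 members had a window in the table, and the windows of Irf3, Irf5, Irf7 and Irf9 likewise held no match. The window of Irf2 held an ISRE, a GAS and a kappaB match, 241, 224 and 17 bases before the start site, and its ISRE match overlapped a match to the composite ETS-IRF element (GGAA, any 2 bases, GAAA). Over all 32851 windows of up to 250 bases, 2.98% held an ISRE match, 7.02% a GAS match, 5.93% a kappaB match and 2.3% an ETS-IRF match. An AP-1 element (TGANTCA) was in 6.75% of windows and in none of the 8.

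Irf4 and Irf8 had the largest differences of the 8 genes. Irf4 was 1.40-fold and Irf8 1.38-fold as high with CCL19 as without, and the other 6 members lay between 0.92-fold and 1.20-fold. The call depended on the test. By edgeR's quasi-likelihood test with Benjamini-Hochberg adjustment over all tested genes, 0 of 8 members passed 0.05, and 0 of the 11666 genes did (0%). By edgeR's unadjusted p, 2 of 8 members, Irf4 and Irf8, were under 0.05 and higher, against 14.5% of all tested genes, and none of the 8 was under 0.05 and lower, against 13%. In either direction 27.5% of all tested genes were. By limma-voom, 0 of 8 members and 0 genes overall passed. By the DESeq2 Wald test, the tool named in the submitters' processing notes, 2 of 8 members were higher, Irf4 and Irf8, against 6.55% of the genes DESeq2 gave an adjusted p, and 0 of 8 were lower, against 5.6% (12.2% in either direction). The authors' deposited list of changed genes holds Irf4 and Irf8 as higher with CCL19 and none of the other 6 members.

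Irf4 stood at 1198, 1021 and 880.6 CPM (read counts scaled to a common library size by TMM) in CCL19 replicates 1 to 3, and at 616.3, 812.2 and 789.7 CPM in no-CCL19 replicates 1 to 3. Every CCL19 library was above every no-CCL19 library, with CCL19 replicate 1 at the top and no-CCL19 replicate 1 at the bottom. The means were 1033 ± 159 CPM and 739 ± 107 CPM (SD, n = 3 each), and the edgeR log2 fold change was 0.48 ± 0.12 (SE), with an adjusted p of 0.0505 by edgeR and 0.00368 by DESeq2. Groups that do not overlap were seen for 29.8% of all tested genes, 15.3% higher with CCL19, and for 2 of the 8 members, Irf4 (higher) and Irf3 (lower). The exact permutation test over the 6 libraries (2-sided) gave 0.1 for Irf4, the smallest p that 3 against 3 allows.

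Irf8 stood at 187.6, 175 and 133.2 CPM with CCL19 and at 94.95, 136.9 and 127.4 CPM without. Here the groups overlapped, because CCL19 replicate 3 was below no-CCL19 replicate 2. The means were 165 ± 28.5 CPM and 120 ± 22.0 CPM (SD, n = 3 each), and the log2 fold change was 0.46 ± 0.13 (SE), with an adjusted p of 0.0612 by edgeR and 0.0140 by DESeq2. The exact permutation p was 0.2.

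**Figure D1:**
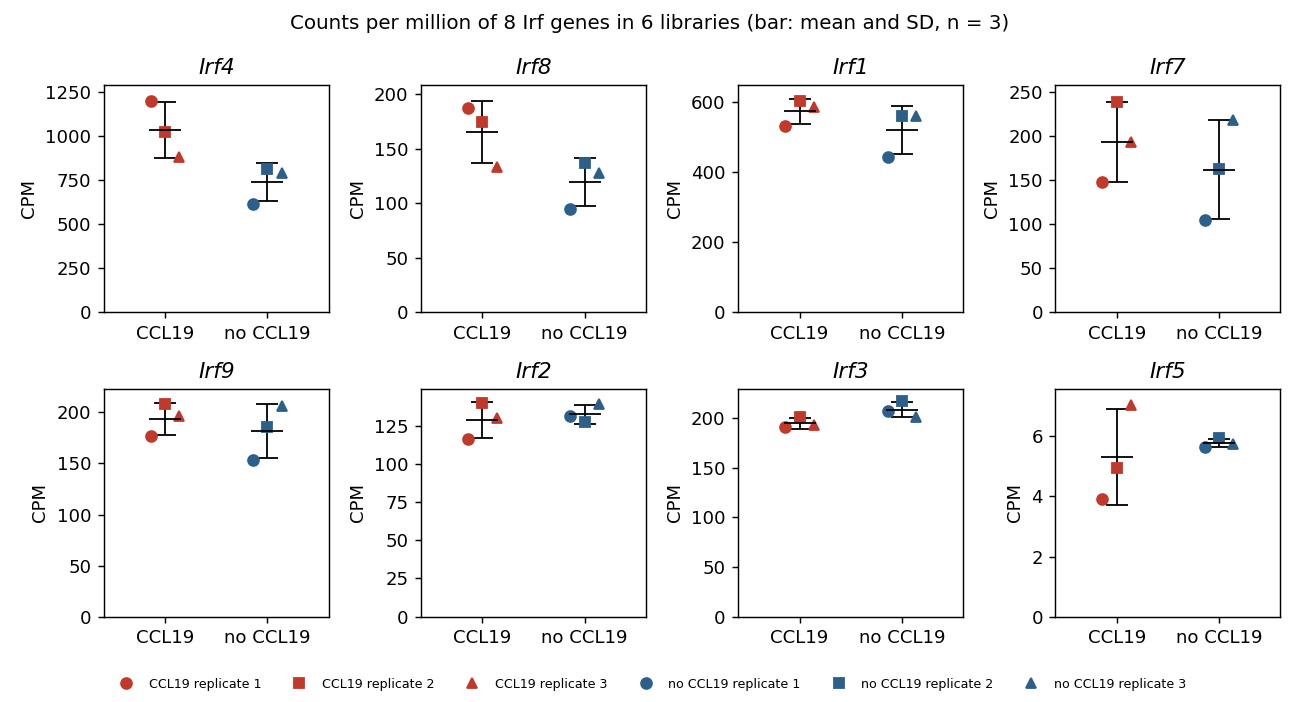
Scaled read counts (y axis, CPM, from 0) of the 8 family members in the CCL19 (red) and no-CCL19 (blue) libraries; point shapes give the replicate number, bars the mean and SD of 3 libraries. Irf4 is the member whose CCL19 libraries (880.6 to 1198 CPM) all lie above the no-CCL19 libraries (616.3 to 812.2 CPM), and Irf3 the one whose CCL19 libraries all lie below.

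Both calls rested in part on single libraries, and so did DESeq2's calls over all genes. With all 6 libraries, DESeq2 called 630 of 9613 genes higher. That count was 20 of 5967 without CCL19 replicate 1 and 56 of 8013 without CCL19 replicate 2. It was 60 of 3287 without no-CCL19 replicate 1 and 905 of 9836 without CCL19 replicate 3. Without no-CCL19 replicates 2 and 3 in turn it was 604 of 8607 and 709 of 9522. Without CCL19 replicate 1, the DESeq2 estimate for Irf4 was 0.36 (log2), with an adjusted p of 0.0760. Irf4 passed DESeq2's threshold in the other 5 of 6 leave-outs. Irf8 passed in 3 of 6: its DESeq2 log2 fold change was 0.36 (adjusted p = 0.142) without CCL19 replicate 1, 0.42 (adjusted p = 0.113) without CCL19 replicate 2 and 0.32 (adjusted p = 0.108) without no-CCL19 replicate 1. In the other direction, leaving out CCL19 replicate 3 brought both genes under edgeR's threshold, with an adjusted p of 0.0174 for each. In that leave-out edgeR called 772 of 11871 genes higher.

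**Figure D2:**
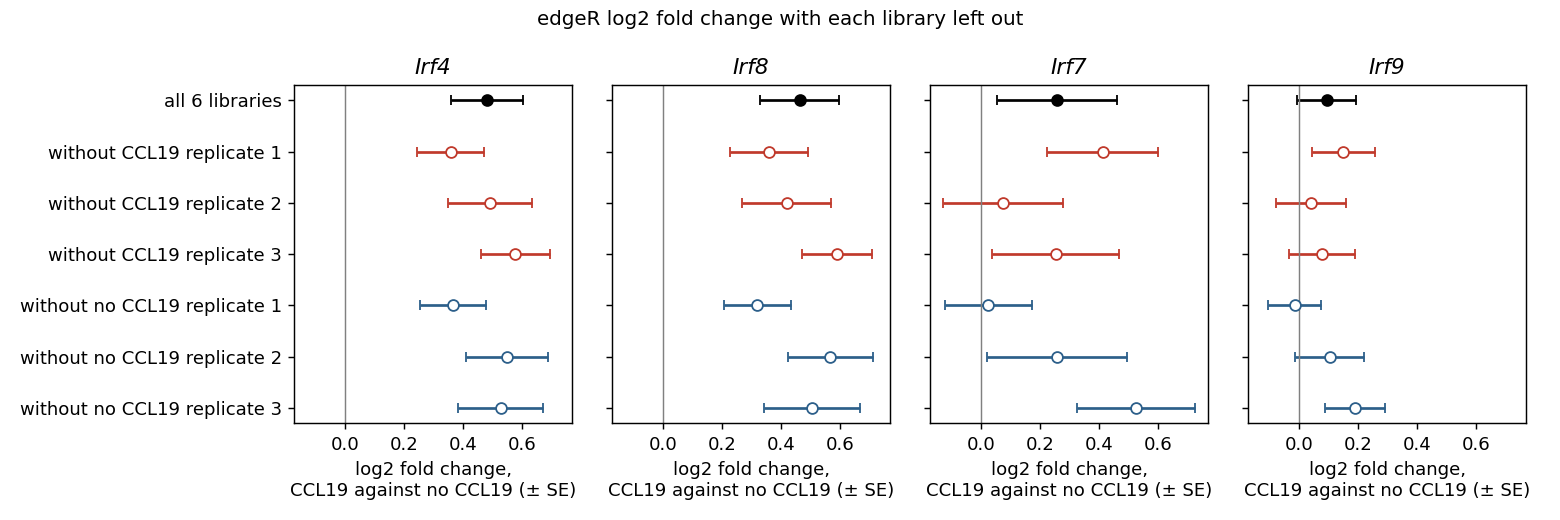
edgeR log2 fold change, CCL19 against no CCL19, with its SE (x axis) for Irf4, Irf8, Irf7 and Irf9, from all 6 libraries (filled) and with each library left out in turn (open). Irf4 stays between 0.36 and 0.58 and Irf8 between 0.32 and 0.59, while Irf7 runs from 0.03 to 0.53 and Irf9 from -0.01 to 0.19.

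None of the interferon-linked members, Irf1, Irf7 and Irf9, passed a test. Irf1, the interferon-γ target, stood at 532.4, 601.7 and 584.3 CPM with CCL19 and at 441.8, 559 and 558.6 CPM without. The groups overlapped, and no-CCL19 replicate 1 lay well below the other 5 libraries. The means were 573 ± 36.1 and 520 ± 67.6 CPM (SD, n = 3 each), a log2 fold change of 0.14 ± 0.10 (SE; adjusted p = 0.378 by edgeR and 0.346 by DESeq2). Without no-CCL19 replicate 1 it was 0.04 by edgeR and 0.03 by DESeq2.

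Irf7, the amplifier of type I interferon, stood at 147.9, 239.5 and 193.4 CPM with CCL19 and at 105.2, 163.1 and 218.5 CPM without. Its spread within each group was wide: CCL19 replicate 2 and no-CCL19 replicate 3 were the highest libraries and came from different groups. The log2 fold change was 0.26 ± 0.20 (SE; adjusted p = 0.431 by edgeR and 0.671 by DESeq2). It was 0.03 without no-CCL19 replicate 1 and 0.53 without no-CCL19 replicate 3, and it passed the threshold under no alternative.

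Irf9, the DNA-binding subunit of ISGF3, stood at 176.8, 207.9 and 196.4 CPM with CCL19 and at 153.4, 185.4 and 206.2 CPM without. The libraries fell in the same order as for Irf7, with the groups interleaved. The log2 fold change was 0.09 ± 0.10 (SE; adjusted p = 0.571 by edgeR and 0.587 by DESeq2), and it changed sign, to -0.01 by edgeR, when no-CCL19 replicate 1 was left out.

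Irf3, the sensor-activated member, was the only one of the 8 whose CCL19 libraries all lay below the no-CCL19 libraries, at 190.5, 201.2 and 192.8 against 207.5, 216.8 and 201.4 CPM. The gap was small, since the highest CCL19 library and the lowest no-CCL19 library were nearly level, and groups apart in this direction were seen for 14.5% of all tested genes. The log2 fold change was -0.10 ± 0.07 (SE; adjusted p = 0.386 by edgeR), with an exact permutation p of 0.1.

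Irf2, the competitor of Irf1, stood at 116.3, 140.0 and 130.4 CPM with CCL19 and at 131.3, 127.3 and 139.6 CPM without, and its log2 fold change was -0.04 ± 0.08 (SE; adjusted p = 0.779 by edgeR). Irf5, best known in myeloid and B cells, was the lowest member at 3.91, 4.96 and 7.05 CPM with CCL19 and 5.66, 5.93 and 5.75 CPM without. In both genes the CCL19 libraries spread to either side of the no-CCL19 libraries. The log2 fold change of Irf5 was -0.12 ± 0.19 (SE; adjusted p = 0.738 by edgeR).

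Some of these counts are uncertain because annotated exons overlap those of neighbours and no source used here gives the strand setting of the counting. Exons of Irf5 overlap those of Tnpo3 on the opposite strand over 251 bases, and Irf5 also has the fewest counts, between 65 and 163 per library. Irf1, Irf3 and Irf7 overlap opposite-strand exons over 100, 88 and 45 bases. Irf9 shares 123 bases with Rnf31 on the same strand. No exon overlap was found for Irf4, Irf8 or Irf2.

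The contrast between the antigen-receptor-linked and the interferon-linked members was then taken within each library, as the mean log2 CPM of Irf4 and Irf8 minus that of Irf1, Irf7 and Irf9. It was 0.98, 0.44 and 0.29 in the CCL19 libraries and 0.33, 0.38 and 0.11 in the no-CCL19 libraries. The values overlapped between the groups: CCL19 replicate 1 stood far above the rest, CCL19 replicate 2 came next, and CCL19 replicate 3 was below no-CCL19 replicates 1 and 2. The group means were 0.57 ± 0.36 and 0.27 ± 0.14 (SD, n = 3 each), a difference of 0.30 that was 0.09 without CCL19 replicate 1. No test is given, because the members were grouped with results of these data known. The ratio of Irf4 to Irf1 CPM, a comparison across libraries only, was 2.25, 1.70 and 1.51 with CCL19 and 1.40, 1.45 and 1.41 without, so that all 3 CCL19 libraries were above the no-CCL19 libraries. The ratio of Irf8 to Irf7 CPM was 1.27, 0.73 and 0.69 with CCL19 and 0.90, 0.84 and 0.58 without, with the groups interleaved.

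Levels of different genes were compared per length, as TPM (a gene's share of the length-scaled counts of a library) with the union of each gene's coding-transcript exons from GENCODE M21 as length. Over the 6 libraries Irf4 (504 ± 112 TPM, SD, n = 6) and Irf1 (439 ± 45.1 TPM) were the most abundant members. They were followed by Irf3 (219 ± 10.4 TPM), Irf7 (205 ± 57.4 TPM), Irf9 (163 ± 18.5 TPM), Irf2 (131 ± 9.73 TPM) and Irf8 (116 ± 26.8 TPM), with Irf5 last at 5.63 ± 1.08 TPM. The steps from Irf1 to Irf3 and from Irf8 to Irf5 were larger than the spread, with no overlap between libraries. The other neighbours in the order overlapped in range. Irf4 was above Irf1 in 5 of 6 libraries, the exception being no-CCL19 replicate 1, at 351 against 355 TPM. With the longest transcript as length the top places changed, Irf1 standing at 656 and Irf4 at 477 TPM, so their order depends on the transcript model. Irf8, the member with the second-largest fold, stood at 134 ± 22.6 TPM with CCL19 and 97.6 ± 17.8 TPM without (SD, n = 3 each), against 585 ± 88.3 and 422 ± 61.6 TPM for Irf4.

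**Figure D3:**
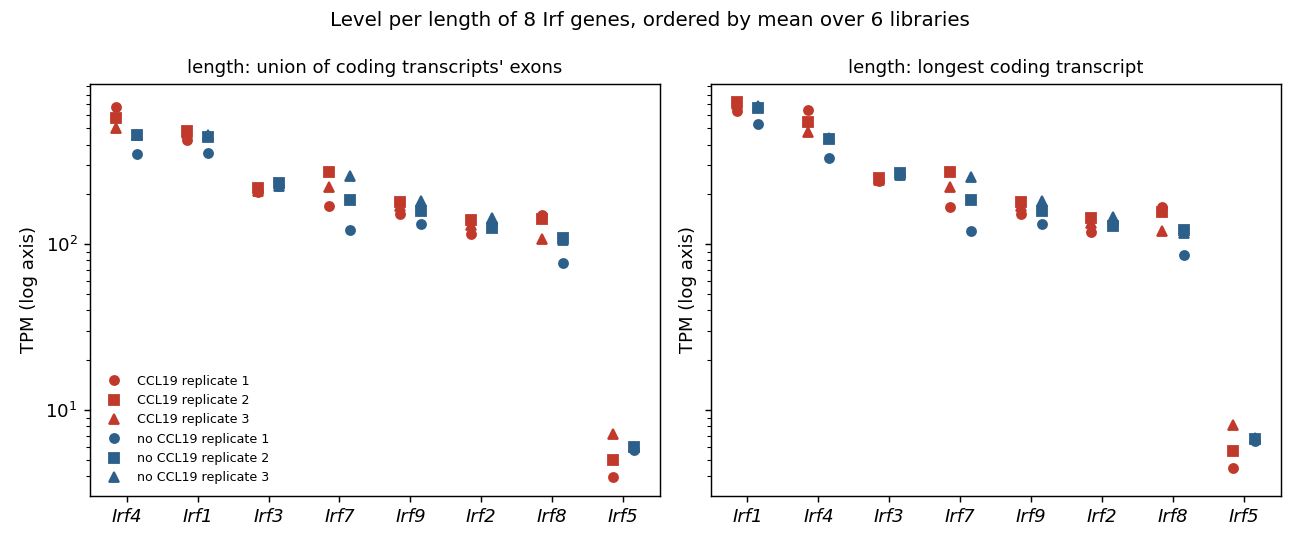
Level per length (y axis, TPM, log axis) of the 8 members, ordered by mean over 6 libraries, with the exon union (left) or the longest transcript (right) as gene length; each point is 1 library, red with CCL19 and blue without. Irf4 (504 TPM) leads with the exon union and Irf1 (656 TPM) with the longest transcript, and Irf5 is far below the other 7 in both.

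Across the 6 libraries the most alike members formed 2 sets. Irf4 and Irf8 varied together (Pearson's r = 0.98 and Spearman's rho = 0.94 of log2 CPM over 6 libraries), and also after each group's mean was removed (r = 0.97). Irf7 and Irf9 varied together (r = 0.99, rho = 1), again after the group means were removed (r = 0.99), and Irf1 went with them (r = 0.92 with Irf7 and 0.94 with Irf9). Between the sets the correlation was lower, at 0.46 for Irf4 with Irf7 and 0.53 for Irf8 with Irf7. Irf1 was closer to Irf4 and Irf8 than Irf7 was, at 0.62 with Irf4 and 0.67 with Irf8, but closer still to Irf7 and Irf9. The points share library and depth with each other, 6 points are few, and these values are descriptions with no test.

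The genes whose levels were most like each member's were then listed. They were taken from 9865 genes with a mean log2 CPM of at least 1, after names of predicted genes and clones were left out. For Irf4 they were Strap, Eif3c and Sptlc1 (r between 0.9983 and 0.9989 over 6 libraries), and for Irf8 they were Nat10, Gramd1b and Eif4a3 (r between 0.9974 and 0.9987). Such likeness was common for both, since 1329 genes had r above 0.9 with Irf4 and 1155 with Irf8. For Irf7 the most alike of the genes compared was the member Irf9 (r = 0.9946). It was followed by Dhx58 (r = 0.9929), a helicase of RNA sensing, and Mx2 (r = 0.9927), an interferon-induced antiviral GTPase. For Irf1 they were Il12rb2 (r = 0.9900), a subunit of the interleukin-12 receptor, Gpatch1 (r = 0.9830) and Igtp (r = 0.9813), an interferon-γ-induced GTPase. Only 108 genes had r above 0.9 with Irf7 and 105 with Irf1.

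**Figure D4:**
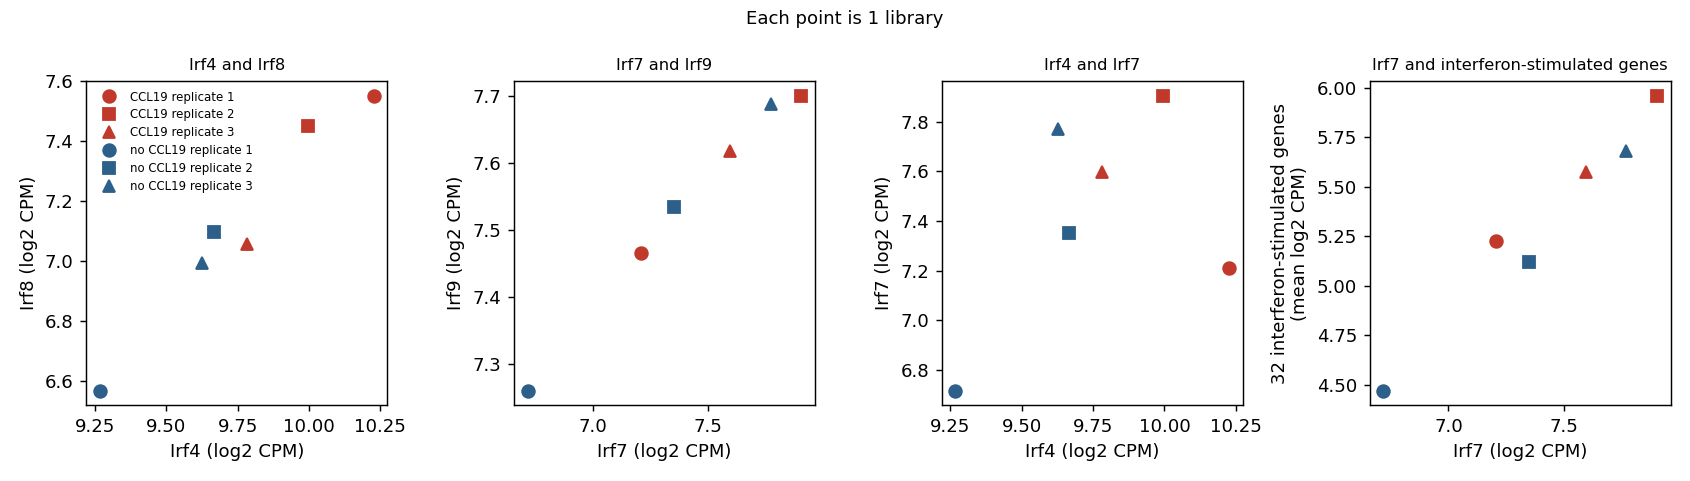
Log2 CPM of pairs of members in the 6 libraries, and of Irf7 against the mean of 32 interferon-stimulated genes (far right); each point is 1 library, red with CCL19 and blue without. Irf4 and Irf8 (r = 0.98) and Irf7 and Irf9 (r = 0.99) lie along lines, while for Irf4 and Irf7 (r = 0.46) CCL19 replicate 1 has the highest Irf4 and the second-lowest Irf7.

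Genes for proteins that carry the antigen-receptor signal towards Irf4 were read next. Of 21 tested, edgeR called 0, and DESeq2 called 3 of 21 higher (6.55% over all genes) and 0 lower (5.6%), with a median edgeR log2 fold change of 0.07 against -0.00 over all tested genes. The 3 were Nfkb1 (1541 ± 193 against 1208 ± 125 CPM, log2 fold change 0.35 ± 0.11 SE, DESeq2 adjusted p = 0.0142), Lcp2, the adaptor SLP-76 (0.29 ± 0.09, DESeq2 adjusted p = 0.0159), and Rel (0.34 ± 0.11, DESeq2 adjusted p = 0.0290). Nfkb1 and Rel encode the NF-κB subunits p50 and c-Rel, and c-Rel is a known activator of Irf4. In all 3 genes every CCL19 library was above every no-CCL19 library. Of the 21 genes, 5 stood apart higher and 2 lower, against 15.3% and 14.5% of all tested genes. The DESeq2 count was 0 without CCL19 replicate 1, CCL19 replicate 2 or no-CCL19 replicate 1. It was 3 without no-CCL19 replicate 3, 6 without no-CCL19 replicate 2 and 7 without CCL19 replicate 3. Over all genes the DESeq2 count moved too, from 20 of 5967 higher without CCL19 replicate 1 to 905 of 9836 without CCL19 replicate 3.

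Genes known to be bound or controlled by IRF4 with BATF in T cells held the most DESeq2 calls of the lists around the family. Of 18 tested, edgeR called 0. Of the 16 with a DESeq2 adjusted p, DESeq2 called 6 higher (6.55% over all genes) and 0 lower (5.6%), with a median log2 fold change of 0.28. They were Hk2, the glycolytic enzyme hexokinase 2 (70.6 ± 10.7 against 46.9 ± 7.84 CPM, log2 fold change 0.59 ± 0.12 SE, DESeq2 adjusted p = 0.00220), Il2ra, the interleukin-2 receptor chain CD25 (388 ± 52.6 against 265 ± 42.0 CPM, 0.55 ± 0.12, DESeq2 adjusted p = 0.00183), Cdk6, Bcl2l1, Myc and Hif1a. Cdk6, a cell cycle kinase, differed by 0.45 ± 0.11 on the log2 scale (SE; DESeq2 adjusted p = 0.0128). Another 4 of the 18 had values below 0. The lowest was Batf itself, IRF4's partner, at 16.1, 19.0 and 22.4 CPM with CCL19 and 25.4, 21.0 and 20.9 CPM without, with a log2 fold change of -0.22 ± 0.12 (SE; adjusted p = 0.260 by edgeR). The helper-subset genes Prdm1, Gata3 and Ctla4 were also below 0 and passed no test. The DESeq2 count was 1 without CCL19 replicate 1 or no-CCL19 replicate 1, 2 without CCL19 replicate 2, and 6 or 7 without any of the others. DESeq2 gave an adjusted p to 10, 8 and 13 of the genes in those 3 leave-outs, so these counts were taken over fewer genes. In the same 3 leave-outs few genes of the whole table were called higher. The counts were 20 of 5967 without CCL19 replicate 1, 60 of 3287 without no-CCL19 replicate 1 and 56 of 8013 without CCL19 replicate 2. Il2ra passed in 6 of 6 leave-outs and Hk2 in 4 of the 5 that gave it an adjusted p. The list's median ran from 0.16 to 0.33 over the alternatives.

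Genes for partners of the family gave 1 call. Of 19 partner genes tested, edgeR called 0, and of the 17 with a DESeq2 adjusted p, DESeq2 called 0 higher and 1 lower (5.6% over all genes), with a median log2 fold change of -0.03. The 1 was Irf2bpl, a relative of the IRF2-binding corepressors, at 52.2, 52.1 and 49.1 CPM with CCL19 and 78.9, 72.5 and 59.9 CPM without. Every CCL19 library was below every no-CCL19 library, the log2 fold change was -0.46 ± 0.10 (SE; DESeq2 adjusted p = 0.00249, edgeR adjusted p = 0.0505), and the authors' deposited list also holds Irf2bpl as lower with CCL19. It passed DESeq2's threshold in the 5 leave-outs that gave it an adjusted p. The leave-out of no-CCL19 replicate 1 gave none, at a DESeq2 log2 fold change of -0.38. Ets1 (-0.24 ± 0.09) and the AP-1 gene Jund (-0.24 ± 0.11) passed neither test. With GC content and length fitted as an offset, Irf2bpl was at -0.31 (adjusted p = 0.0975 by edgeR), Ets1 at -0.26 and Jund at 0.01. Of the 19 partner genes, 0 stood apart higher and 1 lower, against 15.3% and 14.5% of all tested genes. Spi1, which encodes PU.1, lay between 0.87 and 1.70 CPM in the 6 libraries, and Batf3 between 0 and 0.17 CPM.

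**Figure D5:**
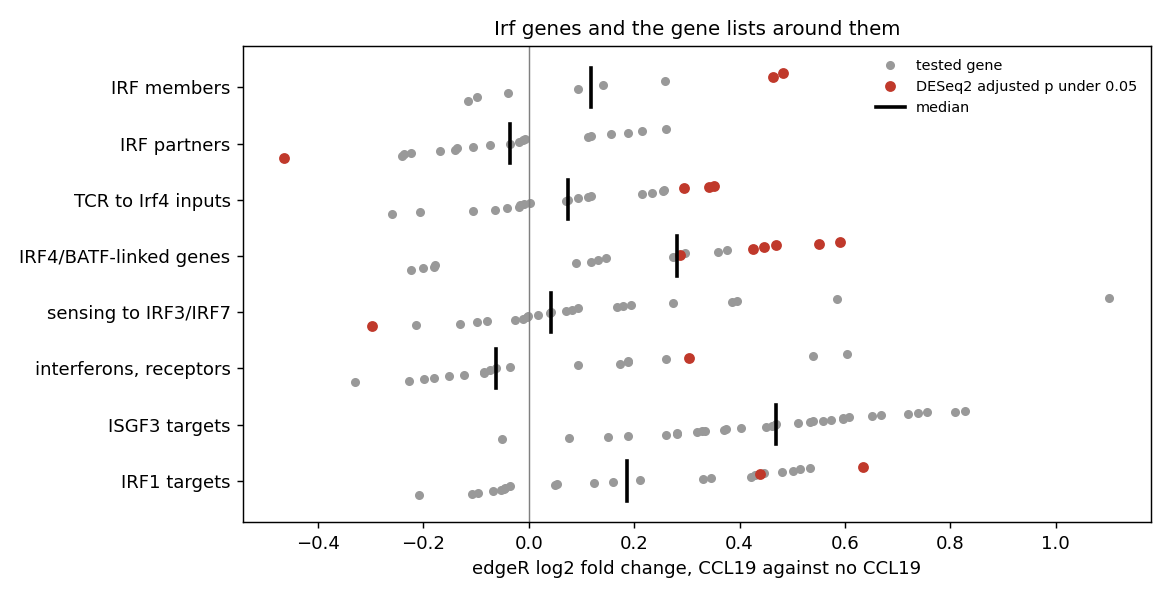
edgeR log2 fold change, CCL19 against no CCL19 (x axis), of each tested gene in the family and in 7 lists around it; red points passed a DESeq2 adjusted p of 0.05 and black bars are list medians. Red points lie on the right for Irf4, Irf8, 3 antigen-receptor inputs and 6 IRF4/BATF-linked genes. They also lie on the right for 2 IRF1 targets and 1 gene of the interferons and receptors. On the left are 1 partner gene and 1 gene of sensing to IRF3 and IRF7. The 32 ISGF3 targets have the highest median, 0.47, and no red point.

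The genes that act upstream and downstream of the interferon-linked members were then read. Of 32 interferon-stimulated genes known as ISGF3 targets, 31 had a log2 fold change above 0. Their median was 0.47, against -0.00 over all tested genes. Of the 32, 0 passed edgeR and 0 passed DESeq2 (6.55% of all genes were higher by DESeq2). In none did the groups stand apart, against 15.3% of all tested genes higher and 14.5% lower. Isg15, a ubiquitin-like antiviral protein, stood at 25.1, 48.5 and 34.7 CPM with CCL19 and at 13.8, 26.0 and 34.2 CPM without, and its log2 fold change was 0.57 ± 0.26 (SE; adjusted p = 0.166 by edgeR and 0.435 by DESeq2). As for Irf7, CCL19 replicate 2 and no-CCL19 replicate 3 were high and no-CCL19 replicate 1 was lowest. Oasl2, an oligoadenylate synthetase relative, had the list's smallest edgeR p (0.76 ± 0.25 SE, adjusted p = 0.0837 by edgeR and 0.275 by DESeq2), followed by Ifi44 (0.81 ± 0.31) and Bst2 (0.34 ± 0.13).

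The mean log2 CPM of the 32 genes was 5.23, 5.96 and 5.58 in the CCL19 libraries and 4.47, 5.12 and 5.68 in the no-CCL19 libraries. The no-CCL19 libraries thus spanned more than the distance between the group means, and the highest of them was above CCL19 replicates 1 and 3. The list's median log2 fold change was 0.21 by DESeq2 without no-CCL19 replicate 1 and 0.79 without no-CCL19 replicate 3. Its count of DESeq2 calls went from 0 to 13 without no-CCL19 replicate 3, where DESeq2 called 709 of 9522 genes higher over the table. The list's count also depended on the filter. With no filter on low counts, edgeR called 22 of the 32 higher, and 803 of 15905 genes overall. Members of the Ifit and Oas families have near-identical copies, and no source used here says how the counting treated reads with several matches.

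The interferons themselves were near the detection limit. Ifnb1 lay between 0 and 0.22 CPM in the 6 libraries and was not tested. Ifng stood at 1.80, 2.63 and 1.39 CPM with CCL19 and at 0.74, 1.71 and 1.41 CPM without, with overlapping groups and a log2 fold change of 0.60 ± 0.34 (SE; adjusted p = 0.266 by edgeR). Of 19 interferon, receptor and signalling genes tested, edgeR called 0, and of the 18 with a DESeq2 adjusted p, DESeq2 called 1 higher (6.55% over all genes) and 0 lower, with a median of -0.06. The 1 was the kinase Jak2 (400 ± 30.4 against 324 ± 35.1 CPM, log2 fold change 0.30 ± 0.09 SE, DESeq2 adjusted p = 0.0216), and its call was lost without CCL19 replicate 1, CCL19 replicate 2 or no-CCL19 replicate 1 (DESeq2 log2 values from 0.22). The receptor chains Ifngr2 (-0.33 ± 0.11 SE) and Ifnar1 (-0.12 ± 0.09 SE) and the kinase Tyk2 (-0.20 ± 0.07 SE) passed neither test. Irf9's partner Stat2 (0.26 ± 0.16 SE) did not either. For Ifngr2 and Tyk2 every CCL19 library was below every no-CCL19 library. Of the 19 genes, 4 stood apart lower and 1 higher, against 14.5% and 15.3% of all tested genes.

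The sensors and kinases that activate Irf3 and Irf7 gave 0 calls by edgeR among 23 tested, and of the 22 with a DESeq2 adjusted p, DESeq2 called 0 higher and 1 lower (5.6% over all genes), with a median of 0.04. The 1 was Ikbke, which encodes the kinase IKKε, at 555.7, 659.4 and 701.5 CPM with CCL19 and at 842.1, 750.3 and 765.1 CPM without (log2 fold change -0.30 ± 0.10 SE, DESeq2 adjusted p = 0.0193). Its CCL19 libraries were all below its no-CCL19 libraries, and the call was lost without CCL19 replicate 1, CCL19 replicate 2 or no-CCL19 replicate 1, where the smallest DESeq2 difference was -0.21. The related kinase Tbk1 stood at 107 ± 0.63 against 99.8 ± 2.73 CPM (0.09 ± 0.07 SE, adjusted p = 0.390 by edgeR), and the RNA sensor Ifih1 had 0.58 ± 0.18 (SE; adjusted p = 0.0722 by edgeR and 0.213 by DESeq2). Traf6, a ubiquitin ligase of Toll-like receptor signalling, stood apart between the groups (131 ± 8.27 against 115 ± 4.69 CPM) and passed neither test (0.19 ± 0.07 SE, adjusted p = 0.116 by edgeR and 0.101 by DESeq2). Tbk1 also stood apart, higher with CCL19. Of the 23 genes, 5 stood apart higher and 2 lower, against 15.3% and 14.5% of all tested genes. Among 24 genes linked to Irf1, edgeR called 0, and of the 22 with a DESeq2 adjusted p, DESeq2 called 2 higher (6.55% over all genes) and 0 lower, with a median of 0.19. They were Il15ra, the interleukin-15 receptor chain (33.1 ± 3.29 against 21.4 ± 6.09 CPM, 0.63 ± 0.16 SE, DESeq2 adjusted p = 0.00797), and Cd274, which encodes PD-L1 (621 ± 68.4 against 458 ± 79.2 CPM, 0.44 ± 0.12 SE, DESeq2 adjusted p = 0.00800). Gbp2, an interferon-induced GTPase, also stood apart (598 ± 40.2 against 422 ± 147 CPM) and passed neither test (0.50 ± 0.18 SE, adjusted p = 0.104 by edgeR and 0.255 by DESeq2). Of the 24 Irf1-linked genes, 4 stood apart higher and 0 lower, against 15.3% and 14.5% of all tested genes. The antigen-processing genes of that list, such as Tap1 (-0.05) and Psmb9 (-0.10), passed no test. The DESeq2 count for the Irf1-linked list was 0 without CCL19 replicate 1, CCL19 replicate 2 or no-CCL19 replicate 1. It was 1 without CCL19 replicate 3, 4 without no-CCL19 replicate 2 and 7 without no-CCL19 replicate 3. Between 17 and 22 of its genes had an adjusted p. Over all genes DESeq2 called 20 of 5967 higher without CCL19 replicate 1. It called 905 of 9836 without CCL19 replicate 3 and 709 of 9522 without no-CCL19 replicate 3. With no filter on low counts, edgeR called 11 of the Irf1-linked genes higher, and 803 of 15905 genes overall.

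Because Irf4, Irf5 and Irf8 are also genes of B cells and myeloid cells, markers of other cells were read in the same libraries. The dendritic cell markers summed to between 179 and 207 CPM with CCL19 and between 178 and 197 CPM without, and 7 of their 15 genes were under 1 CPM. Bst2, the most abundant of them, is also an ISGF3 target. The 12 B cell markers summed to between 36.7 and 43.3 CPM against between 40.7 and 46.7 CPM, led by Fcer2a, and the 13 macrophage and monocyte markers to between 21.3 and 28.0 CPM against between 21.1 and 30.7 CPM, led by Cd68, with Fcgr1 at 0 in all 6 libraries. The ranges of these lists overlapped between the groups. The 12 T cell markers, at between 5279 and 5827 CPM with CCL19 and between 5851 and 6485 CPM without, and the 8 regulatory and memory markers, at between 179 and 190 CPM against between 147 and 165 CPM, did stand apart. Of the 12 T cell markers, DESeq2 called 3 lower (Tcf7, Lef1 and Bcl11b), against 5.6% of all genes, and 0 higher. Of the 5 regulatory and memory markers with a DESeq2 adjusted p, it called 1 higher (Tnfrsf4), against 6.55%, and 0 lower. Over the 6 leave-outs, Tcf7 and Tnfrsf4 passed DESeq2's threshold in 3, Lef1 in 2 and Bcl11b in 4. Most of the regulatory and memory sum was Tnfrsf4, at means of 118 CPM with CCL19 and 98.9 CPM without. Cd44 also stood apart, with a log2 fold change of 0.37, and passed neither test. Of the 12 T cell markers 0 stood apart higher and 4 lower, and of the 8 regulatory and memory markers 2 higher and 0 lower. Over all tested genes the shares were 15.3% higher and 14.5% lower. The regulatory T cell genes Foxp3 (0.03) and Ikzf2 (-0.02) had overlapping groups. Of the 8 genes in that list, 5 had values above 0 and 3 below. The part of the T cell and the regulatory and memory markers in the results for Irf4 and Irf8 was not tested. In bulk RNA a change in the number of cells that express a gene and a change in RNA per cell cannot be told apart.

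The 6 libraries held between 16978736 and 27429898 counts. Fold changes followed base composition across the table, with a Spearman rho of -0.32 between exon GC content and log2 fold change over 11439 genes, which are not independent replicates. Irf4 was at 47.6% GC and Irf8 at 55.1%, on either side of the median of 50.2%. When GC content and length were fitted as an offset, Irf4 had a log2 fold change of 0.46 and Irf8 of 0.53 (adjusted p = 0.0975 by edgeR for each), while Irf3, at 56.7% GC, moved from -0.10 to -0.01. Tyk2, at 57.0% GC, moved from -0.20 to -0.09, and Jund, at 67.2% GC, from -0.24 to 0.01.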

How the data were processed

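Per the submitters' processing notes, STAR 2.5, featureCounts 1.5.0-p1 and DESeq2 1.28.1 were used with mm10. Per the labels, the library kit was Illumina TruSeq. The authors deposited unnormalized read counts for each gene and a list of the genes they called changed, with directions in words. The list's threshold, the strand setting, multi-mapping and annotation release were not stated in the sources used here.

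Groups came from the sample titles. The counts were fitted across the whole table with edgeR 4.0.16 (filterByExpr, TMM, quasi-likelihood test, Benjamini-Hochberg adjustment, threshold 0.05) in R 4.3.3. DESeq2 1.42.0 and limma 3.58.1 (voom) were alternatives, with other filters, a replicate block, a GC and length offset and each library left out. TMM factors lay between 0.979 and 1.02. The biological coefficient of variation was 8.72%, and 361 genes shared the lowest edgeR adjusted p, 0.0505. Log2 CPM used a prior count of 2. Gene lengths and GC content came from GENCODE M21 (23663 of 24470 genes matched). Libraries in groups of 3 were not screened for outliers.

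Some items are not reported here. The members and lists were chosen with earlier results of these data known. Named were all members, a fixed set of partner, interferon and kinase genes, the 3 genes of smallest edgeR p in each list with a mean log2 CPM of at least 1, the 3 genes most like Irf4, Irf8, Irf1 and Irf7, and the most abundant marker of each list. Other names were chosen after their values were seen. Of the remaining marker lists, CD8 markers (led by Cd8b1) summed to between 12.4 and 17.2 CPM with CCL19 and between 14.6 and 15.0 CPM without. Natural killer markers (Prf1) summed to between 34.4 and 38.1 against between 32.9 and 38.9 CPM. Granulocyte and erythroid markers (Hbb-bs) summed to between 18.7 and 21.0 against between 15.2 and 22.4 CPM. Tcf7 led the T cell and Tnfrsf4 the regulatory and memory markers.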

Additional observations from a re-analysis of the deposited data

How the results depend on the processing

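The count of members called higher, 0 by edgeR, was 2 by the DESeq2 Wald test (Irf4 and Irf8), 2 by edgeR with no filter on low counts and 1 by edgeR with a robust prior (Irf4). It was between 0 and 2 with single libraries left out, by edgeR and by DESeq2. The count called lower was 0 under every alternative run. Small log2 fold changes changed sign without 1 library: Irf2 was 0.023 by edgeR and 0.024 by DESeq2 without CCL19 replicate 1, and 0.0011 by DESeq2 without no-CCL19 replicate 3. Irf5 was 0.040 without CCL19 replicate 1, and Irf9 was -0.014 by edgeR and -0.0155 by DESeq2 without no-CCL19 replicate 1. With single libraries left out, Irf2 ran from -0.104 to 0.024, Irf5 from -0.373 to 0.040 by edgeR (0.044 by DESeq2, which gave it no adjusted p there) and Irf9 from -0.0155 to 0.198 (0.190 by edgeR). The cause was not tested. With the longest transcript as length, Irf1 moved to 656 and Irf3 to 255 TPM.

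Whether replicate numbers pair the samples is not given by the labels and was not settled here. Over all tested genes, deviations from the group mean of same-numbered libraries correlated at -0.16, 0.08 and -0.02. Those of differently numbered libraries correlated at between -0.21 and 0.22. Single genes differed: a replicate block moved the DESeq2 SE of Irf7 from 0.36 to 0.14 and that of Irf4 from 0.12 to 0.26. With the replicate block, 0 members passed in edgeR (adjusted p = 0.162 for Irf4 and for Irf8) or in DESeq2 (0.232 and 0.294).

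Counts over all genes moved too. edgeR called 803 genes higher and 797 lower with no filter, 267 and 262 with a robust prior, 772 and 827 without CCL19 replicate 3, and 235 and 278 without no-CCL19 replicate 3. For the lists around the family, 68 of their counts moved and 226 did not, and 7 medians moved by more than the spread of the list's mean between replicates (1 SD) while 140 did not. Irf5 had at most 163 reads in any library.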
